A study of Mus musculus with 6 samples.

Results

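The genes described here are 48 genes of fatty acid synthesis, desaturation and elongation, glycerolipid assembly, lipid droplets and lipolysis, fatty acid uptake and activation, oxidation, and the PPAR receptors. They were chosen by symbol for their roles. Of the 48, 45 were in the transcript table used here, among 14000 genes in all, and 44 passed the filter on low values. Acacb, Plin4 and Ppara were not in that table, and Ehhadh, at 0.246 to 0.612 FPKM, was below the filter. FPKM counts sequenced fragments relative to the length of the transcript and to the size of the library, and the value of a gene is the sum over its listed transcripts.

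Poly(A) RNA of the testis was sequenced from 6 wild-type (WT) C57BL/6N males, 3 per group. H+H+Cd males had 2 successive paternal generations on a high-fat diet, and H+Cd males had 1. All 6 drank water with cadmium chloride (CdCl2), which damages the testis, during 10 weeks and were killed at 15 weeks of age. The fathers' diet was given from week 5 to week 15, and the study, which calls the groups HFD2D and HFD1D, took 1 male per litter. Generation and diet history cannot be told apart in this design, and males without cadmium or without a paternal high-fat diet were not analysed here.

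Fatty acids are built in the cytosol from citrate-derived acetyl units, desaturated and elongated in the endoplasmic reticulum, and joined to glycerol as triglyceride or membrane lipid. Triglyceride is kept in coated droplets and released by lipases, and fatty acids are activated to acyl-CoA before they enter a lipid or are oxidised in mitochondria with the help of carnitine. In the testis, germ cells and Sertoli cells make very long polyunsaturated fatty acids for spermatid membranes, Leydig cells draw on droplets for steroid synthesis, and Sertoli cells store and burn lipid taken from residual bodies and dying germ cells.

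The promoters shown are from Acsl1, Plin2 and Acsl4, which are described below. None of these genes was called after adjustment, and Acsl1 was chosen after its values were seen. Acsl1 has upstream and downstream first exons, and a transcript from the downstream promoter was abundant in 2 of the 6 libraries, while Plin2 and Acsl4 were the only members past the screening thresholds of the study. Each window runs from 250 bases before to 50 bases after the start in RefSeq (GRCm38.p6) and is read 5′ to 3′ on the strand of the gene. Capitals mark any match, on either strand, to the sterol response element TCACNCCAC, the nuclear receptor half-site AGGTCA or the E-box CACGTG.
Acsl1 upstream promoter, chr8:46470787-46471086, plus strand: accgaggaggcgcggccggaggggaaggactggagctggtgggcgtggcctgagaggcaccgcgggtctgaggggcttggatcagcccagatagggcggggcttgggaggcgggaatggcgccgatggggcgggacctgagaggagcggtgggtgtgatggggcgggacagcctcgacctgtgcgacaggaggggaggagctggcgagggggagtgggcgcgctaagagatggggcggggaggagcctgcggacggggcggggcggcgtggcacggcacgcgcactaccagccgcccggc
Acsl1 downstream promoter, chr8:46490716-46491015, plus strand: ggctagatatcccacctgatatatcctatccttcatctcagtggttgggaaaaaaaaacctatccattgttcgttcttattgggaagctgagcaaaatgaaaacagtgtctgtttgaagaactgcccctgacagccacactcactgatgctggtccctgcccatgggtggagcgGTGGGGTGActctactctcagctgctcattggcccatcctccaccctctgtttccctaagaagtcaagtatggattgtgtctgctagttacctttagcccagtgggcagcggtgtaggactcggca
Plin2 promoter, chr4:86670010-86670309, minus strand: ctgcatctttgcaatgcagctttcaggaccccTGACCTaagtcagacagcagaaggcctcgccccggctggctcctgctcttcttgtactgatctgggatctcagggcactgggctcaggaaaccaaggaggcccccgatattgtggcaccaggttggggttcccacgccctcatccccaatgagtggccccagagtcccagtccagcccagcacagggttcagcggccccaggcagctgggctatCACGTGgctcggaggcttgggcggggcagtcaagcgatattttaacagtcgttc
Acsl4 promoter, chrX:142390486-142390785, minus strand: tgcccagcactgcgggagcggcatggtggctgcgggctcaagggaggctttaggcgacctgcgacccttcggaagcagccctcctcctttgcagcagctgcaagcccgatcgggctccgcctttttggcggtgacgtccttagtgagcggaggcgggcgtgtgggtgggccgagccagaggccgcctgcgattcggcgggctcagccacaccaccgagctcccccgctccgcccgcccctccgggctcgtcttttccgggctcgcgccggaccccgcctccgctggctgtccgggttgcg
The upstream Acsl1 window was 74.0% G and C and held none of the motifs, and the downstream window, poorer in G and C, held the sterol response element in reverse, starting 76 bases before the start. The Plin2 window held the half-site in reverse and an E-box, starting 218 and 4 bases before the start. The Acsl4 window held none.

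RefSeq gave a promoter for 38 of the 48 genes, 48 windows in all. The sterol response element was in 2 member windows, of Acsl1 and Ehhadh, and in 1.24% of all 32851 promoters. The half-site was in 14 member windows (29.2%) of 13 genes, against 16.3% of all promoters. The E-box was in 3 member windows (6.25%), of Plin2, Mgll and Elovl5, against 7.15% of all promoters. DR1, a direct repeat of the half-site with 1 base between, was in 0 member windows and in 0.0396% of all promoters. These are matches of letters, searched on both strands, and each DR1 also counts as a half-site.

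Levels of the 45 listed genes spanned more than 3 orders of magnitude in these testes. The mean over the 6 libraries was at least 100 FPKM for 5 genes, 10 to 100 FPKM for 24, 1 to 10 FPKM for 12 and below 1 FPKM for 4. Fabp9, a fatty acid-binding protein of germ cells, was the most abundant and made up 48.1% to 56.4% of the summed FPKM of the members. Acsl1, Lpin1, Me1 and Fabp3 followed. Srebf1, Lpl, Ehhadh and Ppard were the 4 genes below 1 FPKM.

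**Figure D1:**
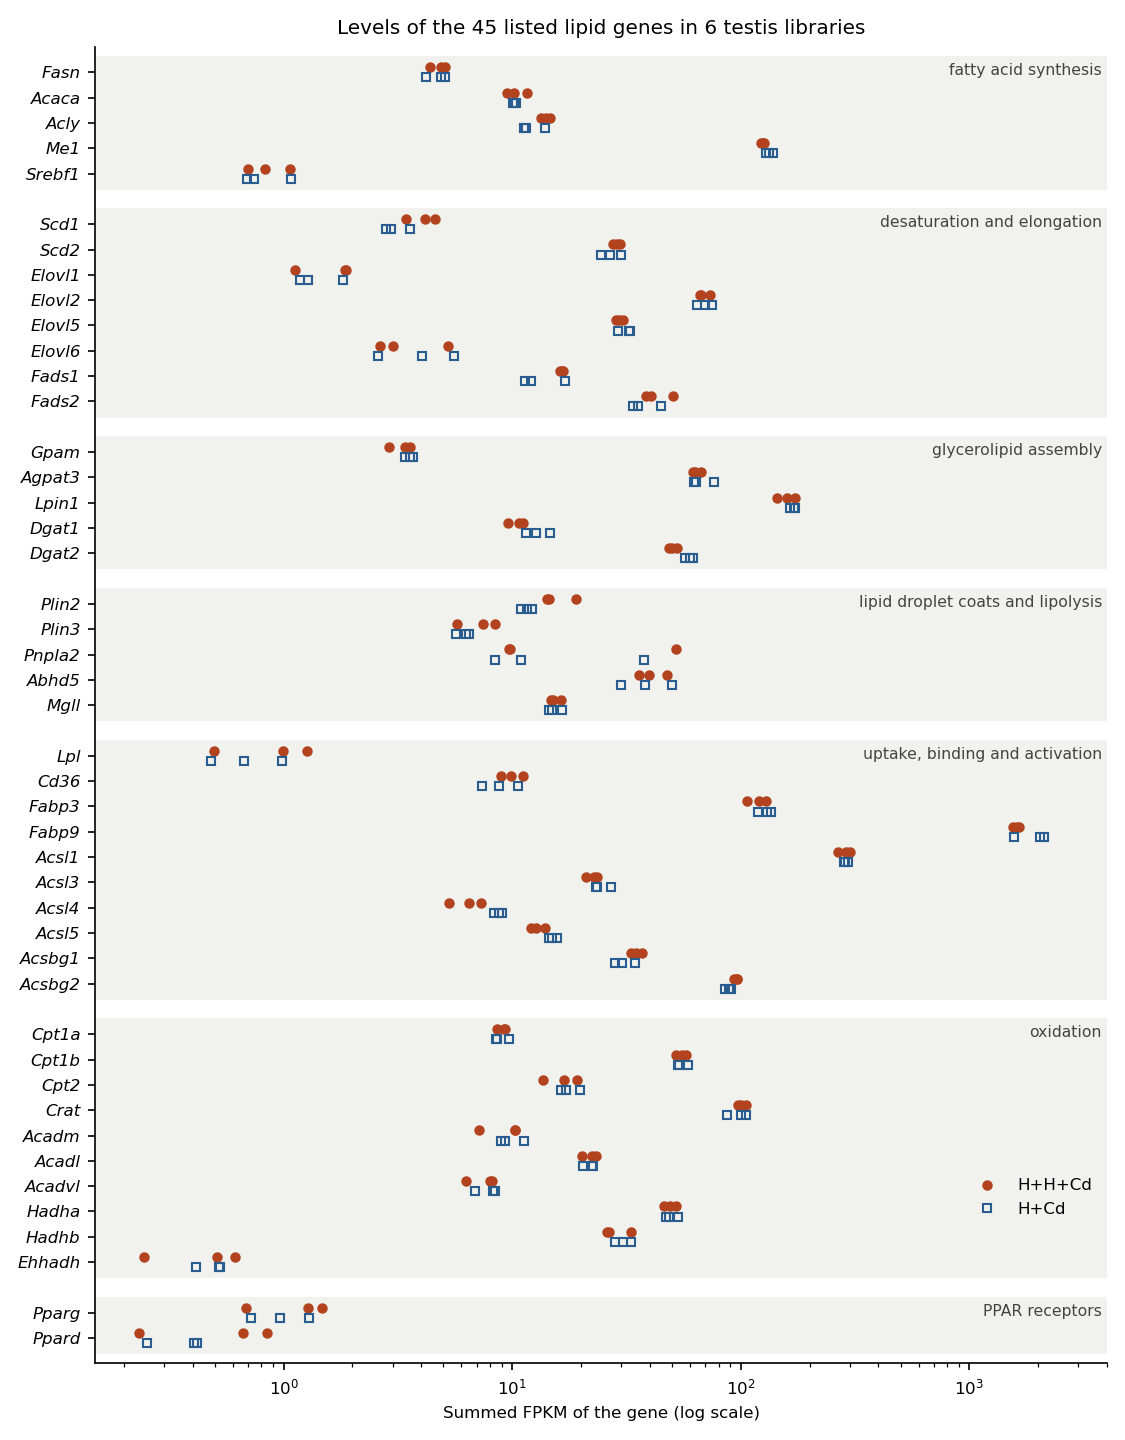
Levels of the 45 listed genes by step, as summed FPKM on a log x axis, with 1 symbol per library (filled circles H+H+Cd, open squares H+Cd, 3 libraries each). Fabp9 lies highest, at 1557 to 2114 FPKM, and the symbols of the groups overlap for most genes.

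Among related enzymes 1 member led in every library. Scd2 was 6.45 to 9.50 times the level of Scd1, Cpt1b, the muscle type of the carnitine palmitoyltransferase that admits fatty acids to mitochondria, was 5.61 to 6.46 times the level of Cpt1a, the liver type, and Dgat2 was 3.91 to 5.51 times the level of Dgat1. The Acsl1 to Acsl4 ratio was 45.3 ± 5.49 in H+H+Cd and 33.1 ± 1.17 in H+Cd testes (SD, n = 3 each). This ratio and that of Scd2 to Scd1, at 7.15 ± 0.835 in H+H+Cd and 8.71 ± 0.690 in H+Cd testes, gave the smallest p that the exact two-sided permutation test allows with 3 against 3, 0.1 (7 ratios computed). The Scd2 to Scd1 ratios of H+Cd testes were 8.32, 8.30 and 9.50, all above those of H+H+Cd testes, at 6.45, 6.93 and 8.07. These ratios are quotients of FPKM, which is scaled per length.

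No member differed between the groups after adjustment. In limma's fit over all genes, 0 of 44 members had an adjusted p below 0.05, and the smallest was 0.358. Among all 13769 genes tested 1 was called (0.00726%). An unadjusted p below 0.05 was found for 5 members (11.4%), 1 higher and 4 lower in H+H+Cd testes, against 11.9% of all genes (5.31% higher and 6.59% lower). The screening thresholds of the study, an F-test with an unadjusted p below 0.05 and a fold above 1.2, were applied here to gene sums. They were met by 2 members (4.55%), Plin2 and Acsl4, against 4.82% of all genes. The values of the groups did not overlap for 7 members (15.9%), 2 higher and 5 lower, against 19.4% of all genes (8.34% higher and 11.0% lower). Over both directions each of these shares is below that of all genes. By direction, the 4 lower members at the unadjusted p were 9.09%, above the share of all genes, and the 5 lower without overlap were 11.4%, close to it. The median log2 fold change of the members was 0.01, and 23 of 44 were positive.

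**Figure D2:**
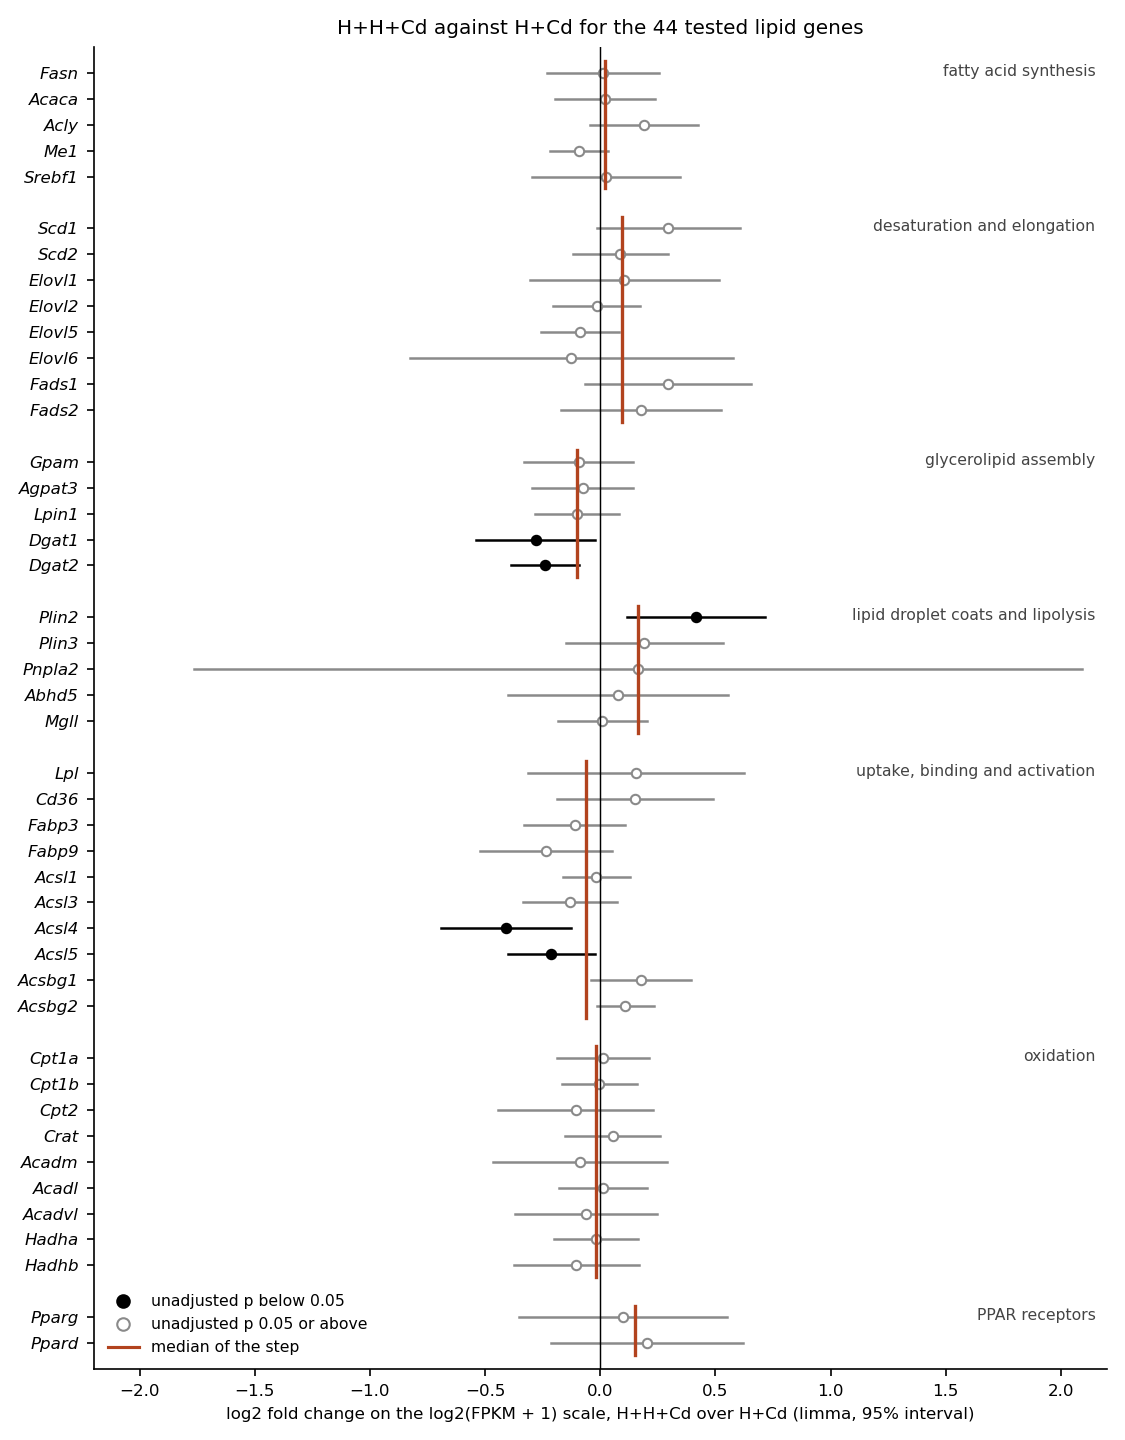
Log2 fold change of H+H+Cd over H+Cd for the 44 tested genes by step, on the log2(FPKM + 1) scale, with limma's 95% interval, filled points for an unadjusted p below 0.05 and red lines for step medians. The 5 filled points are Dgat1, Dgat2, Plin2, Acsl4 and Acsl5, and 0 of 44 passed after adjustment.

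Libraries differed in ways that touch these genes. Epididymal markers stood out in H+H+Cd replicate 1, with Crisp1 at 86.1 FPKM there and at most 0.293 FPKM in the other libraries, and 2 of 6 epididymal markers were in the table. Slc27a1, a fatty acid transport protein, was at 4.22 FPKM in that library and listed at 0 in the other 5. H+Cd replicate 2 had the lowest Insl3, a Leydig hormone, at 45.5 FPKM, against 235 to 276 FPKM in the others. H+Cd replicate 1 lay with the H+H+Cd libraries for several of the genes below, so values without each H+Cd library in turn are given. In bulk testis, fewer cells of a type and less RNA per cell cannot be told apart.

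In fatty acid synthesis none of the 5 tested genes passed, with log2 fold changes of -0.09 to 0.19. Me1, the malic enzyme that supplies NADPH, was the most abundant of them. Its FPKM was 122, 125 and 127 in H+H+Cd testes, against 138, 132 and 128 in H+Cd testes. The groups did not overlap, by a narrow gap, and the log2 fold change was -0.09 ± 0.05 (SE; adjusted p = 0.518). Acly, which splits citrate into acetyl-CoA, had 14.1, 14.7 and 13.4 FPKM in H+H+Cd testes and 13.9, 11.5 and 11.3 FPKM in H+Cd testes (log2 fold change 0.19 ± 0.10; adjusted p = 0.481). H+Cd replicate 1 fell within the H+H+Cd range and the other H+Cd libraries were lower than all 3. Leaving out each library in turn gave 0.14 (without H+Cd replicate 3) to 0.28 (without H+Cd replicate 1). Fasn, the fatty acid synthase, Acaca, the acetyl-CoA carboxylase, and Srebf1, the transcription factor of the pathway, had log2 fold changes of 0.01 to 0.03. The median of the step was 0.02.

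In desaturation and elongation none of 8 genes passed, and the median log2 fold change was 0.10. Elovl2, an elongase of polyunsaturated fatty acids, was the most abundant, at 66.3, 67.0 and 73.7 FPKM in H+H+Cd testes and 75.0, 69.9 and 64.5 FPKM in H+Cd testes. The groups overlapped, with a log2 fold change of -0.02 ± 0.08 (SE; adjusted p = 0.948). Scd1, a stearoyl-CoA desaturase, had 4.59, 4.16 and 3.42 FPKM in H+H+Cd testes and 3.59, 2.96 and 2.81 FPKM in H+Cd testes (log2 fold change 0.29 ± 0.13; adjusted p = 0.434). H+H+Cd replicate 3 was below H+Cd replicate 1, and the groups otherwise stood apart.

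Fads1 (chr19:10182888-10196877, plus strand), a desaturase of polyunsaturated fatty acids, had 16.7, 16.6 and 16.2 FPKM in H+H+Cd testes and 17.0, 12.1 and 11.3 FPKM in H+Cd testes. Replicate 1 of H+Cd was the highest of all 6 and the other H+Cd libraries were the lowest. The log2 fold change was 0.29 ± 0.15 (SE; adjusted p = 0.477), and it was 0.46, 0.23 and 0.19 without H+Cd replicate 1, 2 and 3 in turn (adjusted p = 0.128, 0.712 and 0.728). Fads2, its partner, had 40.4, 50.3 and 38.4 FPKM in H+H+Cd testes and 44.7, 33.8 and 35.5 FPKM in H+Cd testes, and Scd2 had 29.6, 28.9 and 27.6 FPKM in H+H+Cd testes and 29.8, 24.6 and 26.7 FPKM in H+Cd testes. These genes also had their lowest values in H+Cd replicates 2 and 3. Fads2 and Scd2 were named after their values were seen. Among the elongases not yet given, log2 fold changes were 0.10 for Elovl1, -0.09 for Elovl5 and -0.13 for Elovl6.

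**Figure D3:**
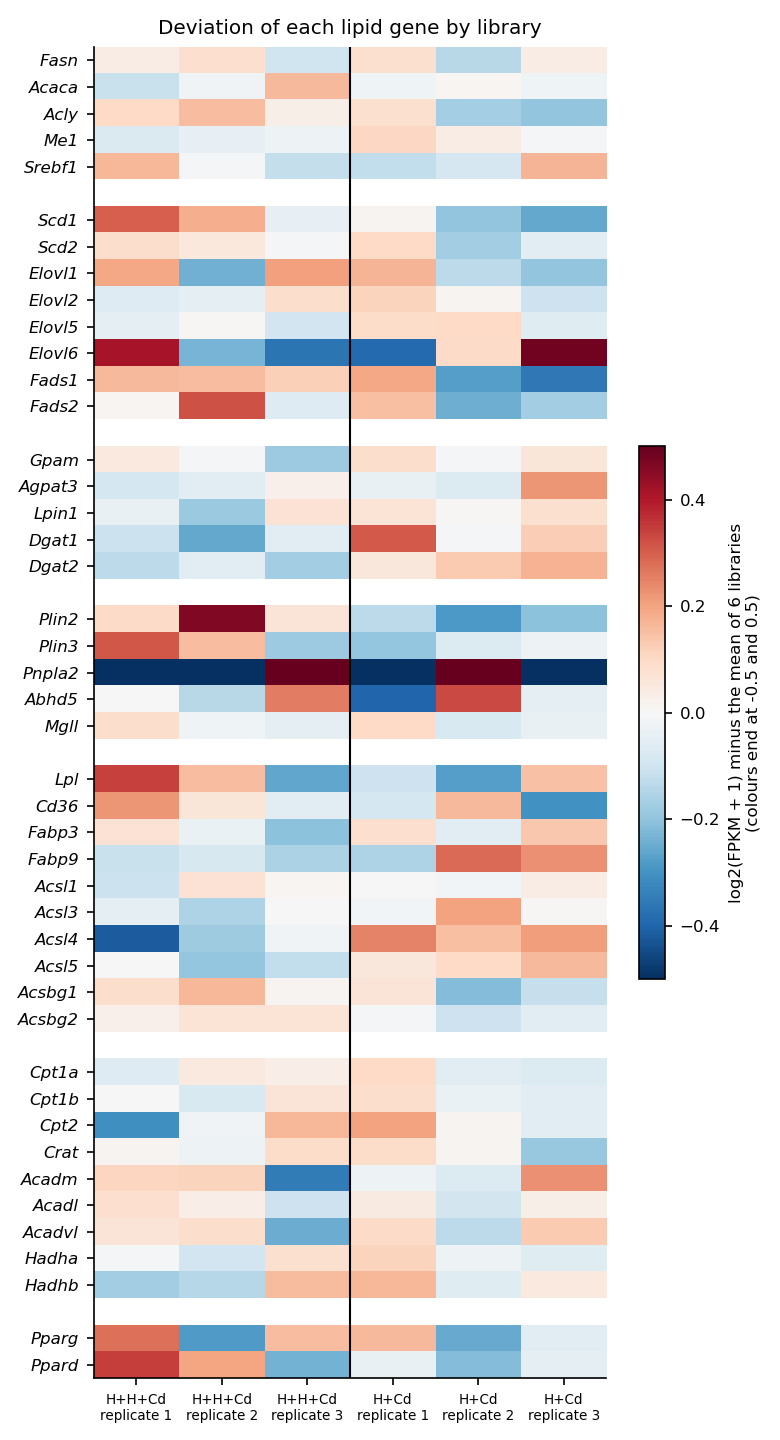
Deviation of log2(FPKM + 1) from the mean of the 6 libraries for the 44 tested genes, ordered by step, with the 3 H+H+Cd libraries left of the 3 H+Cd libraries. Acly, Scd1 and Fads1 are low in H+Cd replicates 2 and 3, and Pnpla2 is high in H+H+Cd replicate 3 and H+Cd replicate 2.

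In glycerolipid assembly the estimates of all 5 genes were negative, with a median log2 fold change of -0.10 beside 0.00 over all genes, but none passed after adjustment. Dgat1 and Dgat2 make triglyceride from diacylglycerol. Coordinates are on GRCm38 (mm10). Dgat2, chr7:99153658-99182719 on the minus strand, had 49.9, 52.7 and 48.5 FPKM in H+H+Cd testes and 57.1, 60.0 and 61.9 FPKM in H+Cd testes. Every H+H+Cd library was below every H+Cd library. The log2 fold change was -0.24 ± 0.06 (SE; 95% interval -0.39 to -0.09; adjusted p = 0.358), and leaving out each library in turn gave -0.27 to -0.21.

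Dgat1, chr15:76502015-76511953 on the minus strand, had 10.7, 9.56 and 11.1 FPKM in H+H+Cd testes and 14.6, 11.5 and 12.7 FPKM in H+Cd testes. The gene sums did not overlap here either, with a log2 fold change of -0.28 ± 0.11 (SE; adjusted p = 0.399). The most abundant listed transcript, ENSMUST00000023214.10, gave -0.17 alone. It had 9.92, 9.56 and 9.71 FPKM in H+H+Cd testes and 14.6, 11.5 and 8.02 FPKM in H+Cd testes, so its groups overlapped. In H+Cd replicate 3, 4.70 FPKM of the sum came from ENSMUST00000160293.1, a processed transcript not annotated as protein-coding. Lpin1, a phosphatidate phosphatase and the most abundant gene of the step, had 159, 144 and 172 FPKM in H+H+Cd testes and 171, 164 and 173 FPKM in H+Cd testes, and the groups overlapped (log2 fold change -0.10 ± 0.08; adjusted p = 0.612). Gpam and Agpat3, acyltransferases of earlier steps, had log2 fold changes of -0.09 and -0.08. The estimate of Agpat3 turned to 0.01 without H+Cd replicate 3 and was also positive with its most abundant listed transcript alone.

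Among lipid droplet coats and lipolysis genes 1 of 5 (20%) was higher with an unadjusted p below 0.05, beside 5.31% of all genes. The median log2 fold change was 0.16. Plin2, a coat protein of droplets in most cells, lies at chr4:86648386-86670060 on the minus strand. It had 14.5, 19.0 and 14.2 FPKM in H+H+Cd testes and 12.2, 10.9 and 11.6 FPKM in H+Cd testes. All H+H+Cd libraries were above all H+Cd libraries, and replicate 2 was the highest. The means were 15.9 ± 2.71 FPKM in H+H+Cd and 11.6 ± 0.680 FPKM in H+Cd testes (SD, n = 3 each), and the log2 fold change was 0.42 ± 0.12 (SE; 95% interval 0.12 to 0.72; adjusted p = 0.368). Leaving out each library in turn gave 0.29 to 0.49, and Plin2 no longer met the thresholds of the study without H+H+Cd replicate 1 or without any 1 of the H+Cd libraries, or with the replicate number as a block.

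Markers of somatic cells of the testis were compared beside Plin2. Of 8 macrophage markers 7 had a higher mean in H+H+Cd testes. Of the 8, 3 (37.5%) were higher with an unadjusted p below 0.05, beside 5.31% of all genes. Their summed FPKM was 28.9 to 37.4 in H+H+Cd and 24.1 to 29.8 in H+Cd testes. Of 8 Leydig markers 6 had a positive and 2 a negative log2 fold change. Their sum was 490 to 580.3 FPKM in H+H+Cd and 271 to 591 FPKM in H+Cd testes. Star, the Leydig cholesterol carrier, had 29.0, 28.0 and 17.2 FPKM in H+H+Cd testes and 20.0, 11.5 and 11.4 FPKM in H+Cd testes. Of the 8 listed Sertoli markers, 4 had a positive log2 fold change. An unadjusted p below 0.05 in either direction was found for 3 (37.5%), beside 11.9% of all genes. The groups did not overlap for 5 (62.5%), 3 higher and 2 lower, beside 19.4% of all genes. The Sertoli sum was 298 to 333 FPKM in H+H+Cd and 322 to 333 FPKM in H+Cd testes. All 6 peritubular myoid markers had a higher mean in H+H+Cd testes, 1 (16.7%) with an unadjusted p below 0.05, beside 5.31% of all genes. Their sum was 179 to 216 FPKM in H+H+Cd and 148 to 203 FPKM in H+Cd testes. The sums of the groups overlapped in the macrophage, Leydig, Sertoli and myoid lists. They did not overlap in the endothelial list, at 4.94 to 5.02 FPKM in H+H+Cd and 4.06 to 4.78 FPKM in H+Cd testes. Of the 5 listed endothelial markers 4 had a positive log2 fold change, 1 (20%) with an unadjusted p below 0.05, beside 5.31% of all genes. The adipocyte genes Plin1, Cidec and Lep were not in the table. The 5 listed adipocyte markers summed to 124 to 130 FPKM in H+H+Cd and 115 to 141 FPKM in H+Cd testes, with overlap. Of these 5, 4 had a positive log2 fold change. Adipoq, 1 of the 5, had 4.68, 5.48 and 7.15 FPKM in H+H+Cd testes and 5.03, 4.89 and 4.10 FPKM in H+Cd testes. The part of these cells in the Plin2 values was not tested.

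Plin3, another coat protein, had 8.45, 7.47 and 5.71 FPKM in H+H+Cd testes and 5.66, 6.26 and 6.48 FPKM in H+Cd testes, and the groups overlapped (log2 fold change 0.19 ± 0.14; adjusted p = 0.609). Abhd5, the co-activator of the lipase Pnpla2, was the most abundant of the step, at 39.5, 35.8 and 47.4 FPKM in H+H+Cd testes and 29.8, 49.9 and 38.2 FPKM in H+Cd testes (log2 fold change 0.08 ± 0.20; adjusted p = 0.894). Pnpla2, which starts triglyceride breakdown and was named after its values were seen, had 9.83, 9.66 and 52.1 FPKM in H+H+Cd testes and 10.9, 37.8 and 8.45 FPKM in H+Cd testes. One library of each group was several times above the other 2, so the estimate, 0.16 ± 0.80, says little about the groups. Mgll, the monoglyceride lipase, varied least among the 5 (log2 fold change 0.01 ± 0.08).

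Uptake, binding and activation held the most abundant member and, in Acsl4, 1 of the 2 past the screening thresholds. The median log2 fold change of the 10 genes was -0.06. Fabp9 (chr3:10193621-10197283, minus strand) had 1610.0, 1644 and 1557 FPKM in H+H+Cd testes and 1560.4, 2114 and 2035 FPKM in H+Cd testes. H+Cd replicate 1 was within the H+H+Cd range and the other H+Cd libraries were above all 4. The log2 fold change was -0.23 ± 0.12 (SE; adjusted p = 0.476), and it was -0.37, -0.15 and -0.18 without H+Cd replicate 1, 2 and 3 in turn (adjusted p = 0.113, 0.723 and 0.712).

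Germ cell markers were compared beside Fabp9, and the round spermatid list moved unlike the other lists. The 8 spermatocyte markers summed to 2474 to 2561 FPKM in H+H+Cd testes and to 2605, 3187 and 3198 FPKM in H+Cd testes, and 1 of 8 had a higher mean in H+H+Cd testes. Of these 8, 3 (37.5%) were lower with an unadjusted p below 0.05, beside 6.59% of all genes. Without overlap 3 (37.5%) were lower, beside 11.0% of all genes, and 0 were higher by either measure. The 7 markers of elongating spermatids summed to 16561 to 17544 FPKM in H+H+Cd testes and to 14579, 20176 and 20161 FPKM in H+Cd testes. Of these 7, 1 had a higher mean in H+H+Cd testes, and 0 had an unadjusted p below 0.05 or groups without overlap. As with Fabp9, H+Cd replicates 2 and 3 had the highest sums in both lists. The 7 listed spermatogonial markers summed to 22.4 to 25.9 FPKM in H+H+Cd testes and to 23.9, 25.9 and 27.6 FPKM in H+Cd testes. Of these 7, 6 had a negative log2 fold change, and 3 (42.9%) were lower without overlap, beside 11.0% of all genes. The 7 round spermatid markers summed to 662, 718 and 698 FPKM in H+H+Cd testes and to 682, 672 and 637 FPKM in H+Cd testes, with 4 of 7 higher in H+H+Cd testes, so there H+Cd replicate 3 was the lowest of all 6. Of these 7, 1 (14.3%) was higher with an unadjusted p below 0.05, beside 5.31% of all genes, and 0 were lower. The part of germ cell content in the Fabp9 values was not tested.

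Acsl4, an acyl-CoA synthetase that prefers arachidonic acid, lies at chrX:142317993-142390535 on the minus strand. It had 5.31, 6.45 and 7.32 FPKM in H+H+Cd testes and 9.01, 8.35 and 8.75 FPKM in H+Cd testes. Every H+H+Cd library was below every H+Cd library. The means were 6.36 ± 1.01 FPKM in H+H+Cd and 8.70 ± 0.330 FPKM in H+Cd testes (SD, n = 3 each), with a log2 fold change of -0.41 ± 0.12 (SE; 95% interval -0.69 to -0.13; adjusted p = 0.358). Without H+H+Cd replicate 1, its lowest library, the log2 fold change was -0.30. It was -0.92 (adjusted p = 0.473) with the most abundant listed transcript alone, and 3 different Acsl4 transcripts led across the libraries. Acsl4 no longer met the thresholds of the study in that setting, without H+H+Cd replicate 2, without any 1 of the H+Cd libraries, or with the replicate number as a block.

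Acsl5, a related synthetase, had 13.9, 12.0 and 12.7 FPKM in H+H+Cd testes and 14.5, 15.0 and 15.7 FPKM in H+Cd testes, with no overlap (log2 fold change -0.21 ± 0.08; adjusted p = 0.393). Its gene model, chr19:55251938-55297720 on the plus strand, shares 26430 bases with Zdhhc6 on the other strand, and the sources do not say whether the quantification used strand. Zdhhc6 had a log2 fold change of -0.01. Acsl1 and Acsl3, of the same family, had log2 fold changes of -0.02 and -0.13, and the estimates of all 4 Acsl genes were negative except that Acsl1 turned to 0.03 without H+H+Cd replicate 1. The gene model of Acsl3 shares 13475 bases with Utp14b on the same strand, and Utp14b had a log2 fold change of 0.43 ± 0.24. How reads were divided between Acsl3 and Utp14b was not tested.

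**Figure D4:**
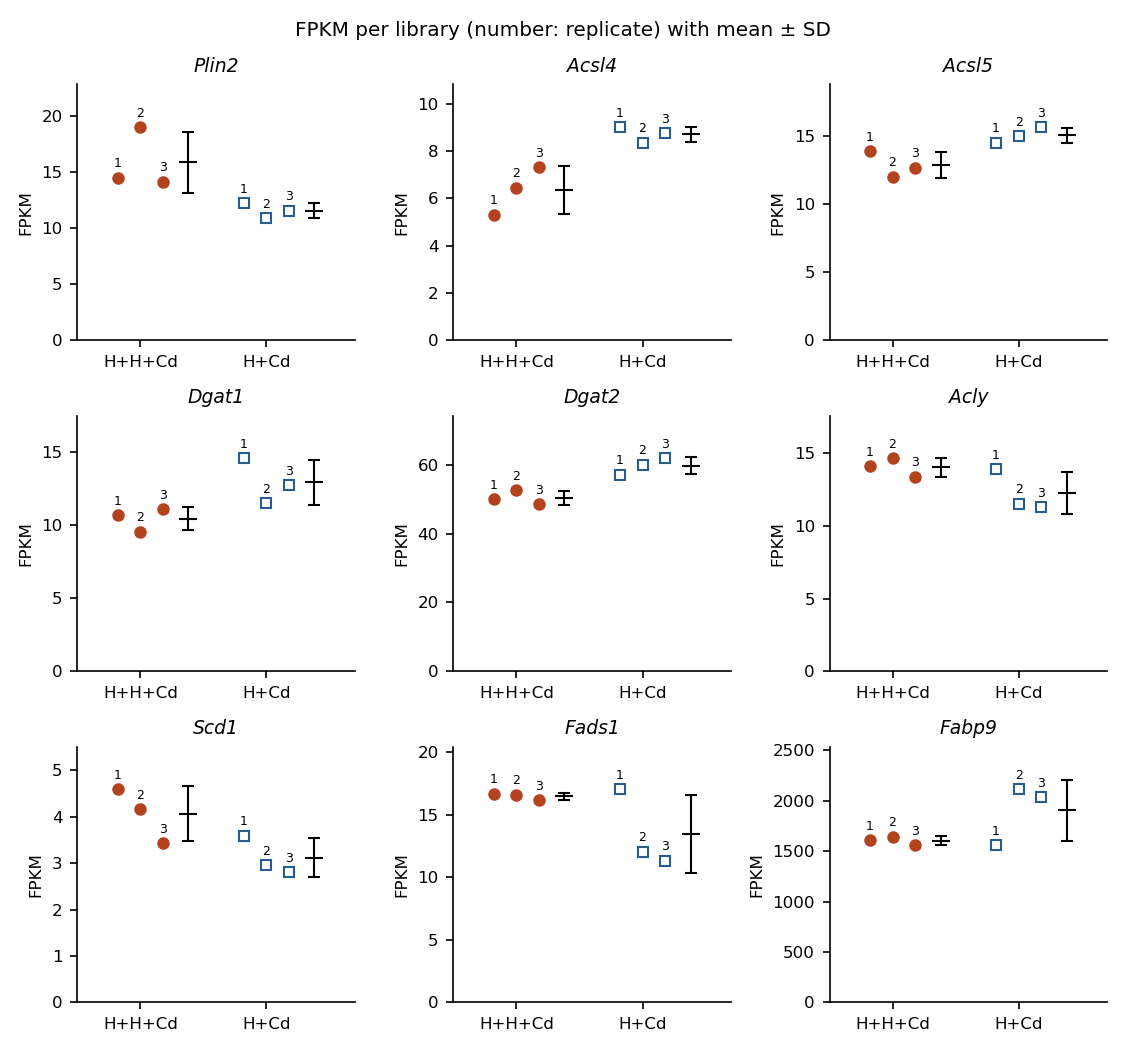
FPKM of 9 genes in each library, numbered by replicate, with the group mean and SD (3 libraries per group, H+H+Cd left of H+Cd). The groups do not overlap for Plin2, Acsl4, Acsl5, Dgat1 and Dgat2, and for Acly, Fads1 and Fabp9 H+Cd replicate 1 sits with the H+H+Cd libraries.

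The bubblegum acyl-CoA synthetases had positive estimates. Acsbg2, the testis-enriched one, had 93.4, 96.3 and 96.2 FPKM in H+H+Cd testes and 91.1, 85.4 and 88.5 FPKM in H+Cd testes, without overlap, and Acsbg1 had 34.9, 36.9 and 33.1 FPKM in H+H+Cd testes and 34.3, 28.1 and 30.2 FPKM in H+Cd testes. Neither passed the test, with log2 fold changes of 0.11 ± 0.05 (SE; adjusted p = 0.455) and 0.18 ± 0.09 (adjusted p = 0.477). Both were named after their values were seen. Cd36, a fatty acid receptor, Fabp3, a binding protein of heart and muscle, and Lpl, the lipoprotein lipase, had log2 fold changes of 0.15, -0.11 and 0.15.

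Oxidation genes lay near 0. None of the 9 tested genes passed, the median log2 fold change was -0.02, and the estimates ran from -0.11 to 0.05. Crat, the carnitine acetyltransferase and the most abundant of them, had 99.9, 97.2 and 105 FPKM in H+H+Cd testes and 105, 99.9 and 86.7 FPKM in H+Cd testes (log2 fold change 0.05 ± 0.08; adjusted p = 0.813). The groups overlapped, and H+Cd replicate 3 was the lowest. Cpt2, the inner-membrane carnitine palmitoyltransferase, had 13.6, 16.9 and 19.3 FPKM in H+H+Cd testes and 19.8, 17.3 and 16.4 FPKM in H+Cd testes (log2 fold change -0.11 ± 0.14; adjusted p = 0.769).

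Hadhb, a subunit of the mitochondrial trifunctional protein, had 26.0, 26.6 and 33.0 FPKM in H+H+Cd testes and 33.2, 28.2 and 30.5 FPKM in H+Cd testes. Its groups overlapped as well (log2 fold change -0.10 ± 0.11; adjusted p = 0.721), and Hadha, the other subunit, had a log2 fold change of -0.02 with a 95% interval of -0.20 to 0.17. For Cpt1b the estimate was 0.00 and the interval -0.17 to 0.16, so a change of the size seen for Plin2 lies outside it. Cpt1a and Acadl, a long-chain acyl-CoA dehydrogenase, were both at 0.01, and Acadm and Acadvl, the medium-chain and very long-chain enzymes, at -0.09 and -0.06.

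The PPAR receptors, which switch on genes of lipid oxidation and storage, were low. Pparg had 1.48, 0.683 and 1.28 FPKM in H+H+Cd testes and 1.29, 0.721 and 0.966 FPKM in H+Cd testes, and Ppard had 0.847, 0.668 and 0.234 FPKM in H+H+Cd testes and 0.416, 0.252 and 0.404 FPKM in H+Cd testes. The groups overlapped for both, with log2 fold changes of 0.10 ± 0.19 (SE; adjusted p = 0.852) and 0.20 ± 0.17 (adjusted p = 0.652). At such levels a pseudocount of 1 shrinks fold changes, and Ppard passed the filter only through H+H+Cd testes.

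At the transcript level 0 of 100 tested member transcripts had an adjusted p below 0.05, against 33 of 25322 transcripts (0.130%), and 10 had an unadjusted p below 0.05 (8.24% of all transcripts did). The 10 include both Elovl1 transcripts below, ENSMUST00000150180.3 of Mgll and ENSMUST00000082367.12 of Cd36. The last had a mean of 0.330 FPKM in H+H+Cd and 1.24 FPKM in H+Cd testes. All of these passed the filter only through the group where they are high, so the count is a description. The smallest p values belonged to the transcripts of Elovl1, an elongase of saturated very long-chain fatty acids. ENSMUST00000167636.7 had 1.61, 0.614 and 1.58 FPKM in H+H+Cd testes and was listed at 0 in every H+Cd testis. ENSMUST00000006557.12 had 0.246, 0.504 and 0.300 FPKM in H+H+Cd testes and 1.81, 1.28 and 1.18 FPKM in H+Cd testes (adjusted p = 0.369 for both). ENSMUST00000006557.12 thus carried 13.2%, 45.1% and 16.0% of Elovl1 in H+H+Cd testes and all of the listed Elovl1 FPKM in H+Cd testes. Each of these transcripts passed the filter on low values only through the group where it is high and was chosen for its small p, so its values are a description and not support for a difference.

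Both Elovl1 transcripts lie on chr4, plus strand, and share exons 2 to 7. They differ at the first exon, which starts at 118428119 or 118428093, and at the end, where exon 8 of ENSMUST00000167636.7 stops at 118432432 and a ninth exon follows, at 118432538 to 118432613. Exon 8 of ENSMUST00000006557.12 runs to 118432953, and its last 53 bases lie within Cdc20 on the other strand, which had 34.8, 37.1 and 31.4 FPKM in H+H+Cd testes and 39.6, 38.3 and 36.0 FPKM in H+Cd testes. Elovl1 as a whole had 1.86, 1.12 and 1.88 FPKM in H+H+Cd testes and 1.81, 1.28 and 1.18 FPKM in H+Cd testes, with overlap. Next by p came ENSMUST00000150180.3 of Mgll, at 0.304, 0.448 and 0.356 FPKM in H+H+Cd testes and 0.828, 1.62 and 1.74 FPKM in H+Cd testes (adjusted p = 0.4998), and it too passed the filter only through the group where it is high.

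Several genes had close sums in all libraries while their listed transcripts traded places within a group. The most abundant transcript differed between libraries for 10 of the 27 members with more than 1 listed transcript. In Acsl1, ENSMUST00000135955.7, which starts at 46471177 within the upstream first exon, held 44.1% to 50.9% of the FPKM in every library. It is a short model of 673 bases that ends at 46511391. Its exons from 46492800 on lie within exons of ENSMUST00000034046.12 and ENSMUST00000110372.8. ENSMUST00000034046.12, which begins at the upstream promoter printed above, had 134, 26.6 and 97.5 FPKM in H+H+Cd testes and 16.4, 132 and 126 FPKM in H+Cd testes. ENSMUST00000110372.8, which begins at the downstream promoter 46490966, had 131 FPKM in H+H+Cd replicate 2 and 135 FPKM in H+Cd replicate 1, and at most 0.003 FPKM in the other libraries. The Acsl1 sum was 266, 300.5 and 288 FPKM in H+H+Cd testes and 286, 284 and 293 FPKM in H+Cd testes, so 1 library of each group carried the downstream form. Most of the upstream FPKM listed in those libraries is that of the short model. Use of the upstream promoter cannot be read from it, as it shares exons with the downstream form.

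Agpat3 gave a like picture. ENSMUST00000166360.7 had 35.5, 1.88 and 1.98 FPKM in H+H+Cd testes and 0.816, 38.7 and 0.880 FPKM in H+Cd testes, and ENSMUST00000105389.7 had 0.553, 34.3 and 35.2 FPKM in H+H+Cd testes and 34.6, 0.028 and 46.6 FPKM in H+Cd testes. In each library 1 of the 2 was high and the other low. In Hadhb, ENSMUST00000114783.5 had 0.459, 0.848 and 0.278 FPKM in H+H+Cd testes and 0.755, 9.13 and 13.6 FPKM in H+Cd testes, and it was the only member transcript called when H+Cd replicate 1 was left out. Acsl1, Agpat3 and Hadhb were chosen after their values were seen. How the reads were divided among transcripts that share most exons was not tested.

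**Figure D5:**
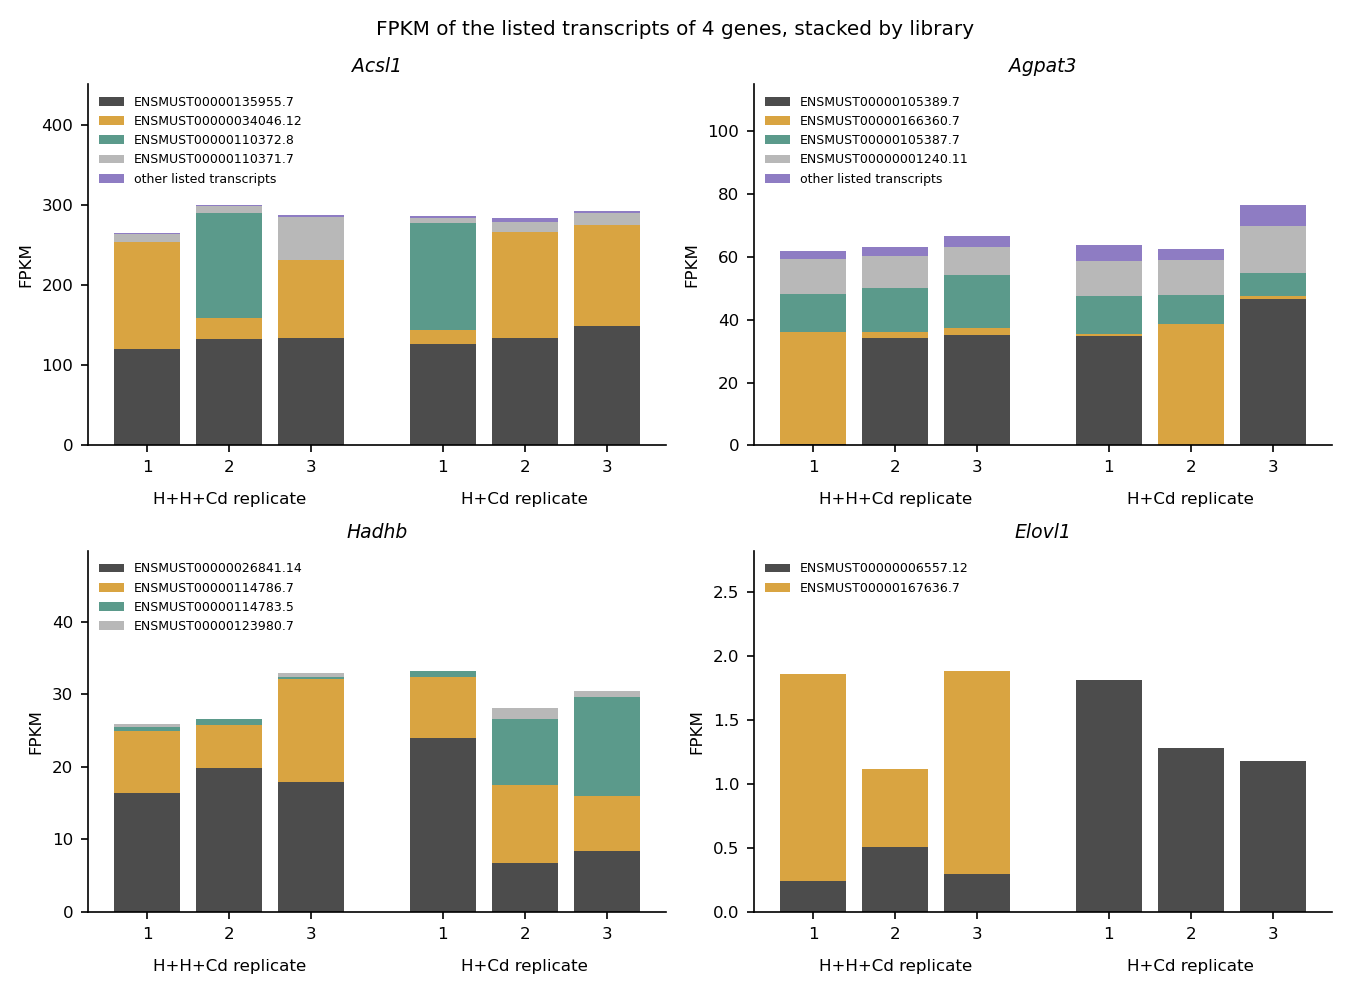
FPKM of the listed transcripts of Acsl1, Agpat3, Hadhb and Elovl1, stacked by library, with the H+H+Cd libraries left of the H+Cd libraries. For Acsl1 and Agpat3 the bar heights are close while the colours trade places within a group, and for Elovl1 the transcript ENSMUST00000167636.7 appears in the 3 H+H+Cd libraries.

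Other genes of the same pathways were read in the same fit. Of 104 named, 88 were in the table and 86 were tested, and 0 had an adjusted p below 0.05 (smallest 0.329). An unadjusted p below 0.05 was found for 9, 6 higher and 3 lower, which is 10.5% beside 11.9% of all genes. The thresholds of the study were met by 4 (4.65%), beside 4.82% of all genes. Fitm1, which helps droplets form, had 3.29, 3.31 and 3.23 FPKM in H+H+Cd testes and 2.35, 2.10 and 2.14 FPKM in H+Cd testes (log2 fold change 0.42 ± 0.08; adjusted p = 0.329), with every H+H+Cd library above every H+Cd library. Acaa1a, a peroxisomal thiolase, had 1.67, 1.74 and 1.25 FPKM in H+H+Cd testes and 0.969, 0.191 and 0.118 FPKM in H+Cd testes (log2 fold change 0.88 ± 0.23; adjusted p = 0.358). It passed the filter only through H+H+Cd testes, where it is high, so its values and its place in the counts above are a description.

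Rxra, the partner receptor of the PPARs, had 8.10, 8.48 and 8.65 FPKM in H+H+Cd testes and 5.58, 6.87 and 6.71 FPKM in H+Cd testes (log2 fold change 0.35 ± 0.10; adjusted p = 0.358). Fabp12, of the same family as Fabp9, had 63.9, 62.8 and 62.9 FPKM in H+H+Cd testes and 57.9, 53.4 and 51.4 FPKM in H+Cd testes (log2 fold change 0.22 ± 0.06; adjusted p = 0.358), while the estimate of Fabp9 was negative. Both Rxra and Fabp12 were higher in every H+H+Cd library. Gpat4, which begins glycerolipid assembly, had 92.3, 94.5 and 96.3 FPKM in H+H+Cd testes and 99.3, 111 and 106 FPKM in H+Cd testes (log2 fold change -0.16 ± 0.06; adjusted p = 0.399). It was lower in every H+H+Cd library, as Dgat1 and Dgat2 were. Its list did not share this direction as a whole. Among the 10 other glycerolipid genes tested, Gpat4 included, 4 estimates were positive and 6 negative. These ran from -0.42 to 0.62, and their median was -0.05.

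In the remaining lists the smallest p belonged to Hacd2, a dehydratase of fatty acid elongation (log2 fold change 0.36 ± 0.14; adjusted p = 0.407), to Slc25a1, the mitochondrial citrate carrier (0.19 ± 0.08; adjusted p = 0.440), and to Acad10, an acyl-CoA dehydrogenase (0.56 ± 0.26; adjusted p = 0.450). Hacd2 had 18.3, 20.3 and 23.0 FPKM in H+H+Cd testes and 18.7, 15.6 and 13.3 FPKM in H+Cd testes, and Slc25a1 had 10.4, 12.0 and 11.4 FPKM in H+H+Cd testes and 9.85, 9.18 and 10.2 FPKM in H+Cd testes. The groups overlapped for Hacd2 and not for Slc25a1. Acad10 had 0.566 and 1.04 FPKM in H+H+Cd replicates 1 and 2 and was listed at 0 in the other 4 libraries, so it too was tested only through H+H+Cd testes. In mitochondrial oxidation 0 of the 22 other genes had an unadjusted p below 0.05, beside 11.9% of all genes.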

How the data were processed

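RNA was poly(A)-selected and made into stranded libraries, and the authors compared the reads with known transcripts in StringTie and exported values with Ballgown. The deposited values are FPKM per transcript, on mm10 per the labels. Which aligner was used, and the tool versions, is not given in the sources used here. Without counts the read depth is unknown, and counting error could not be given. The summed FPKM per library was 382815 to 397147.

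Identifiers were matched without version to GENCODE M21 (27018 of 27120 transcripts) and FPKM was summed by gene. Features with a mean FPKM above 0.5 in a group were tested on log2(FPKM + 1) with limma 3.58.1 in R 4.3.3 (lmFit, eBayes with trend, two-sided, group as the only factor). Adjusted p values are limma's, with Benjamini-Hochberg adjustment over all features at 0.05. An ordinary F-test per gene sum, with the fold on the same scale, gave the second call rule. It takes the thresholds of the study, which tested in Ballgown, so its calls are not those of the study. Fold changes are H+H+Cd over H+Cd on that scale, which understates changes of low genes. Tables were made with Python 3.11.15 and pandas 2.3.3, and the fit was tested on simulated data.

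The members and lists were chosen with earlier results of these data known. Values per library are given, in each step, for the most abundant member and the 2 of smallest p, for members at the study's thresholds, for the 3 transcripts of smallest p, and for the gene of smallest p in each other list. Other members with values per library are said to have been named or chosen after their values were seen. Crisp1, Insl3, Slc27a1, Star, Adipoq and Cdc20 were also given outside these rules. As single genes, Star and Adipoq do not stand for their marker lists. The labels do not say which litters the replicates came from, so p values measure the spread between these samples, which may be partly technical.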

Additional observations from a re-analysis of the deposited data

How the results depend on the processing

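The count of members with an adjusted p below 0.05 was 0, and that of the other pathway genes 0, under every alternative: a filter at 1 FPKM or none, a pseudocount of 0.1, quantile or median-ratio scaling, limma without its trend, the replicate block, the adjusted F-test, the most abundant listed transcript alone, and leaving out each library. Members at the thresholds of the study numbered 2 (Plin2 and Acsl4), were 1 under the replicate block (Scd1, with neither of those), 3 with the most abundant listed transcript alone (Elovl1, Acsl5 and Plin2), and 0 to 5 when each library was left out in turn (5 without H+H+Cd replicate 3, 4 without H+Cd replicate 1, 1 without H+Cd replicate 2 and 0 without H+Cd replicate 3). Member transcripts called numbered 0, and 0 to 1 when each library was left out, the 1 being the Hadhb transcript without H+Cd replicate 1. The median log2 fold change of the members, 0.01, ran from -0.024 (without H+Cd replicate 2) to 0.025 (without H+Cd replicate 1). Of the 19 genes named by rule, 6 changed sign in 10 of 264 refits: Hadhb to 0.64 with its most abundant listed transcript alone, and, when a library was left out, Elovl2 (-0.07 to 0.04), Abhd5 (-0.10 to 0.26), Cpt2 (-0.22 to 0.02), Crat (-0.03 to 0.11) and Pparg (-0.02 to 0.26). The cause of these changes was not tested. A changed filter, limma without its trend and the replicate block leave the log2 fold changes as they are. Those refits could not change a sign, so the count of refits overstates how often a sign was tried. Over all genes, 663 met the thresholds of the study, against 391 under the replicate block and 440 to 1143 when each library was left out (440 without H+Cd replicate 3, 1143 without H+Cd replicate 1); 1638 had an unadjusted p below 0.05, against 1037 under the block and 1014 to 2217 without a library; and 1 was called, against 0 to 13 over all alternatives. The same replicate numbers did not pair the samples: the correlations of deviations were -0.08, 0.00 and -0.16, and the block left 0 members called. A group size of 3 and unknown depth limit what could be detected.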
